A study of Mus musculus with 4 samples.

Results

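The genes of the bone morphogenetic protein (BMP) and growth differentiation factor (GDF) pathway were examined in ATAC-seq data from mouse chondrocytes before and after serial passaging. The 10 genes were the ligands *Bmp2*, *Bmp4*, *Bmp6* and *Gdf5*, the receptors *Bmpr1a*, *Bmpr1b* and *Bmpr2*, the secreted antagonists *Grem1* and *Nog*, and the target gene *Id1*, out of 21887 protein-coding genes in the RefSeq annotation of GRCm38. For each gene, every peak inside the gene or within 100 kb of either end was taken. Peaks of the different libraries that overlapped by at least 1 bp were merged into sites, which gave 329 sites for the 10 genes out of 172311 sites in all.

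In ATAC-seq a transposase inserts sequencing adapters where DNA is accessible, and a peak marks a stretch of open chromatin. The cells were chondrocytes from the knee cartilage of newborn C57Bl/6 mice (postnatal days 0 to 4), grown in DMEM/F12 medium with fetal bovine serum. Primary cells in their first day of culture made up P0. P8 cells had been replated 8 times, each time after the cell number had doubled. The labels give no transgene, mutation or treatment for any of these cells. Time in culture and number of replatings differ together between the passages and cannot be told apart. Each passage had 2 libraries, called A and B here because the peak names carried no replicate number. No label stated that the 2 libraries of a passage came from separate litters or cultures, so their spread may be technical.

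BMP and GDF ligands are secreted dimers that bind complexes of type I receptors (such as *Bmpr1a* and *Bmpr1b*) and type II receptors (such as *Bmpr2*). The type I receptor then phosphorylates Smad1, Smad5 and Smad9, which enter the nucleus with Smad4 and switch on targets such as the *Id* genes, while antagonists such as noggin and gremlin 1 bind the ligands outside the cell. In cartilage the pathway is known for driving condensation and chondrogenesis, for joint formation and for the later maturation of growth plate chondrocytes.

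The libraries differed in depth as well as in passage. Values are given throughout for library A and then library B of a passage. The P0 libraries held 145703 and 119974 peaks and the P8 libraries 89610 and 99784. The floor of the local background in the peak calls (its 0.1% quantile), which follows sequencing depth, stood at 1.42 and 1.18 tags in the P0 libraries but at 1.02 and 0.979 tags in the P8 libraries. Both P0 libraries were thus deeper, and P0 library A was the deepest. Peak numbers are therefore given as called, after all peaks were rescored as if every library had the lowest of these backgrounds (matched background), and per 100000 peaks of the library. With 2 libraries against 2, an exact two-sided permutation test cannot give a p below 0.33, so single genes are described by whether the P0 and P8 libraries overlap. In pooled cells, a larger share of cells with an open site and a more open site in each cell cannot be told apart.

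Start sites were examined first. The measure was the fold enrichment of the highest peak within 1 kb of a start site. Fold enrichment is the pileup of tags at a summit over the local background of its own library, with 1 added to both. For *Bmp2*, *Gdf5*, *Nog* and *Id1* the annotation used gave no strand, so either end of the gene counted. Of the 10 genes, 8 had such a peak in all 4 libraries, beside 59.5% of all protein-coding genes. The exceptions were the ligands *Gdf5*, with a peak in 3 libraries, and *Bmp4*, with none in any library.

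Sequences of 5 promoters are shown because they lie under or next to the peaks described here, 4 of them with a match to a searched motif and 1, *Bmp6*, with a peak at P0 only. Each runs 5′ to 3′ from 250 bases before to 50 bases after the start site (RefSeq, GRCm38.p6), and capitals mark the matches. Both strands were searched for GGCGCC, the GC-rich element bound by Smad1 and Smad5, for TGANTCA, the AP-1 element, and for AACAATG, a SOX element that reads CATTGTT on the other strand. The locations are chr13:38345466-38345765 (plus strand) for *Bmp6*, chr14:34502497-34502796 (minus) for *Bmpr1a*, chr3:141982215-141982514 (minus) for *Bmpr1b*, chr1:59764029-59764328 (plus) for *Bmpr2* and chr2:113758599-113758898 (minus) for *Grem1*.
Bmp6: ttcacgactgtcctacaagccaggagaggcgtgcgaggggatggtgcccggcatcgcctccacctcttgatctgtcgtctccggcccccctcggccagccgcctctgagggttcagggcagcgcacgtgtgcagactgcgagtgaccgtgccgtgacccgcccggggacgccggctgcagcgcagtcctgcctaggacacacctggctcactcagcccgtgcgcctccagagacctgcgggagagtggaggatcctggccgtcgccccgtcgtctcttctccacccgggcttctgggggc
Bmpr1a: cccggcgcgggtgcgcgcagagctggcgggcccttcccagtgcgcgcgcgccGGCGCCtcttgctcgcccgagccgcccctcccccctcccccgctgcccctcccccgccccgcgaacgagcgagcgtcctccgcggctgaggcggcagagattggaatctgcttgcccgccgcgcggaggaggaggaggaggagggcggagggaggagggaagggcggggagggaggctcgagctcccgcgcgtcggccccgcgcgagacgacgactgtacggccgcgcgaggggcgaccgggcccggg
Bmpr1b: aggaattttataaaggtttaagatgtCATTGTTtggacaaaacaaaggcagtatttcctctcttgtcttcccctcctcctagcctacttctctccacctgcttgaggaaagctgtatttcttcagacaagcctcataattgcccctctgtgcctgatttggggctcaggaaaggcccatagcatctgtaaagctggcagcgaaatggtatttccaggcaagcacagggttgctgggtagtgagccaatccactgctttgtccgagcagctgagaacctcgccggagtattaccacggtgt
Bmpr2: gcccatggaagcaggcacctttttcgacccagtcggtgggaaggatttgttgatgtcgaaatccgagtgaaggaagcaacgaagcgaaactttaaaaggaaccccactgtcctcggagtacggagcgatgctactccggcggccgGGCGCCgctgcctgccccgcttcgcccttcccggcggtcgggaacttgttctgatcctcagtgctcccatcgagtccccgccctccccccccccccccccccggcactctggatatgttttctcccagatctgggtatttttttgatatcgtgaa
Grem1: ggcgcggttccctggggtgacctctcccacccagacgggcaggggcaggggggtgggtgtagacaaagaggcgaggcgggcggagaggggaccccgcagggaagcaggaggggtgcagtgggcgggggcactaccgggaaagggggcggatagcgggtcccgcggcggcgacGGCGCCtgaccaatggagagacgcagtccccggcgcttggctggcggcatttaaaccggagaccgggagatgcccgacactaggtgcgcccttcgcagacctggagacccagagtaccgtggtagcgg

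The GC-rich element was found once in *Bmpr1a*, beginning 198 bases before the start site, once in *Bmpr2*, 105 bases before it, and once in *Grem1*, 78 bases before it. Of 32851 mouse promoters of the same length, 11.9% held GGCGCC, 7.81% TGANTCA and 3.78% AACAATG or its complement. The SOX element was found in the *Bmpr1b* promoter, 224 bases before the start site. The *Bmp6* promoter and that of *Bmp4* held none of the 3, and the AP-1 element was found in no promoter of these 6 genes. GC content ranged from 48.3% in this *Bmpr1b* promoter, which had 5 CpG dinucleotides, to 79.3% in *Bmpr1a*, which had 48, beside a median of 52.7% and 7 CpG over all promoters. A match describes letters in the window only.

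The peak that overlapped the *Bmpr1b* promoter had a fold enrichment of 10.8 and 8.24 at P0 and of 5.44 and 8.08 at P8. Both P0 values were above both P8 values, the gap between P0 library B and P8 library B being small. The other 2 annotated *Bmpr1b* start sites, which lie further into the gene, had a peak in P0 library A only. The window of *Bmp6* was overlapped by a peak of 3.44 and 3.70 at P0 and by none at P8. A much stronger *Bmp6* peak ended 443 bp before the start site, at chr13:38344837-38345273, with 10.1 and 11.2 at P0 and 6.96 and 8.16 at P8. This peak was 1.40 ± 0.189 (ratio of means, SD by error propagation, n = 2 per passage) times as enriched at P0, and it was the only start-site peak of the 10 genes that lay higher in both P0 libraries both as deposited and after division by the median start-site peak of each library. In the fit across all shared sites described further on, however, its log2 difference was 0.22 (SE 0.171, adjusted p = 0.446 by limma). It was not called as deposited (adjusted p = 0.0935 by limma) or after quantile normalization (0.468), and was called with pileup in place of fold enrichment (0.0193).

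*Bmpr1a*, a type I receptor, had a broad peak over its start site (chr14:34502217-34503489) of 6.92 and 7.70 at P0 and 6.36 and 6.94 at P8. These values overlapped, since the lower P0 value and the higher P8 value were nearly the same. *Bmpr2*, the type II receptor, had its strongest start-site peak 315 bp upstream, at chr1:59763134-59763964, with 10.0 and 11.2 at P0 and 9.62 and 9.52 at P8. The promoter window itself held a weaker *Bmpr2* peak of 4.07 and 3.98 at P0 and 3.63 and 3.62 at P8. At the start sites used here, *Bmpr2* had the highest value of the 10 genes in both P8 libraries. A *Bmpr1b* site at the higher-coordinate end of that gene (chr3:142168699-142169570) was not counted as a start site. It had 11.4 and 12.7 at P0 and 11.2 and 9.92 at P8.

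*Grem1* and *Nog* encode gremlin 1 and noggin, which keep ligands from their receptors. The *Grem1* start-site peak lay inside the gene, 399 bp from the start site, with 7.62 and 6.42 at P0 and 5.56 and 6.93 at P8, which overlap. The peak over one end of *Nog* (chr11:89302334-89303388) reached 4.22 and 4.86 at P0 and 4.16 and 4.13 at P8. The lower P0 value exceeded the higher P8 value only slightly. *Id1*, the target gene, had 4.09 and 4.99 at P0 and 3.84 and 4.80 at P8, which overlap.

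At *Bmp2* the peak over one gene end (chr2:133551985-133553360) had 6.24 and 7.26 at P0 and 7.72 and 5.22 at P8, so that the highest and the lowest value both came from P8. *Gdf5*, a ligand known for joint formation, had 5.12 and 4.14 at P0 and 3.46 in P8 library B, with no peak in P8 library A. *Bmp4* had peaks only further away, and its nearest site in all 4 libraries, inside the gene and 2982 bp from the start site (chr14:46387264-46387687), had 5.96 and 7.16 at P0 and 6.46 and 7.45 at P8, which overlap. Of the 8 genes with a peak in every library, *Bmp6*, *Bmpr1b*, *Bmpr2* and *Nog* were higher in both P0 libraries, beside 61.8% of the 13014 genes of this kind, and 0 were higher in both P8 libraries, beside 4.14%. The median start-site peak of all such genes was itself higher at P0, at 9.78 and 10.3 against 8.17 and 8.60. After division by these medians only *Bmp6* of the 8 stayed higher at P0, beside 21.4% of the 13014 genes. *Bmpr1a*, *Bmpr2* and *Nog* then lay higher in both P8 libraries, beside 31.2%, and as deposited *Bmpr1a* had overlapped and the other two were higher at P0.

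**Figure D1:**
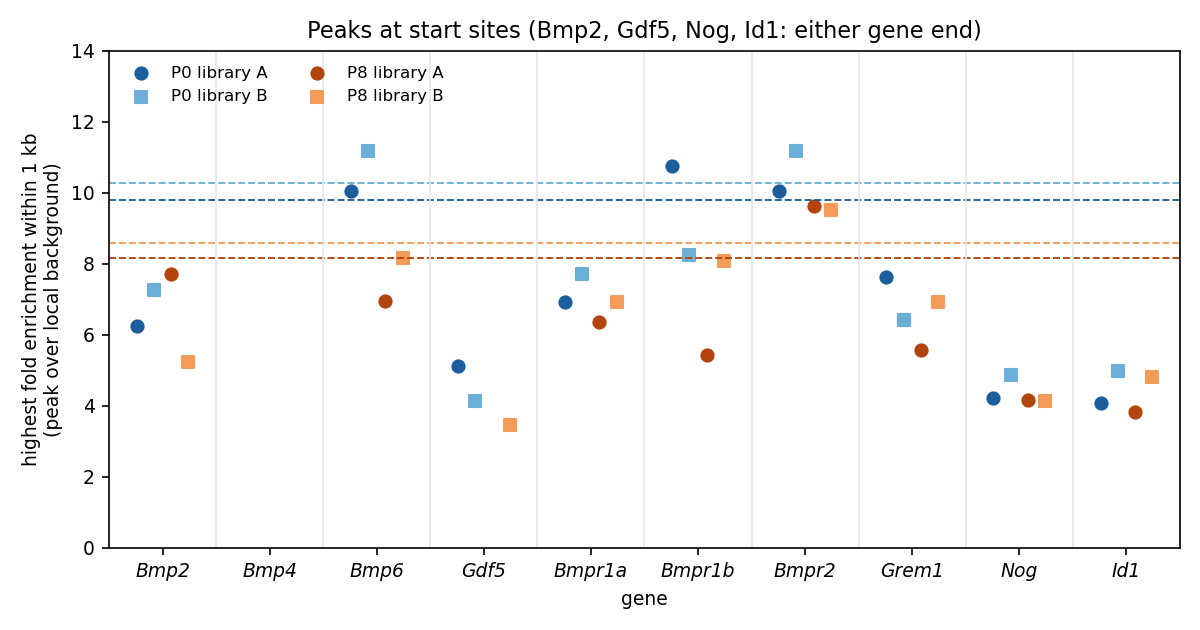
Highest fold enrichment (peak over local background) within 1 kb of a start site for each gene on the vertical axis, with 1 point per library and dashed lines at the median over the 13014 genes with such a peak in all 4 libraries. At *Bmp6* both P0 points lie above both P8 points, *Bmp4* has no point, *Gdf5* has 3, and most points lie below the dashed lines.

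Over the whole windows, the 10 genes had 287 and 228 peaks at P0 against 167 and 199 at P8. These numbers averaged 257.5 ± 41.7 (SD, n = 2) at P0 and 183 ± 22.6 at P8, a ratio of 1.41 (SD 0.287), with p = 0.33 in the exact permutation test, the smallest it can give. At matched background the ratio was 1.36. Per 100000 peaks of the library, the values were 197 and 190 at P0 and 186 and 199 at P8, a ratio of 1.0 (SD 0.0544). The windows of these genes thus held more peaks at P0 by number, and the passages overlapped when each library's total was taken into account. The median ratio of the 10 genes was 1.39, beside 1.29 over the 21023 protein-coding genes with a peak in their window.

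By role, the 4 ligand windows held 106 and 78 peaks at P0 and 44 and 57 at P8, a ratio of 1.82 (SD 0.513), and per 100000 peaks 72.8 and 65.0 against 49.1 and 57.1, a ratio of 1.30 (SD 0.173). The ligands were the only role whose P0 libraries lay above both P8 libraries on both scales. The 3 receptor windows held 108, 81, 66 and 76 peaks in the same order, a ratio of 1.33 (SD 0.300), and 0.945 per 100000. The 2 antagonist windows held 34 and 32 peaks at P0 and 26 and 29 at P8, a ratio of 1.20 (SD 0.106), and 0.861 per 100000. The exact permutation test gave p = 0.33, its smallest value, for the peaks of the ligands, the receptors and the antagonists alike, and whether the ratios of the roles differ was not tested.

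By gene, *Bmp2*, *Bmp4*, *Bmp6*, *Gdf5*, *Bmpr1a* and *Grem1* had more peaks in both P0 libraries than in either P8 library, 6 of the 10, beside 56.1% of all genes with a peak. No gene of the 10 had more in both P8 libraries, beside 3.35%. The count of 6 is near the share over all genes. Per 100000 peaks, *Bmp2*, *Bmp6* and *Gdf5* were higher at P0 (background 19.0%) and *Bmpr1b*, *Bmpr2* and *Id1* were higher at P8 (background 38.0%), so *Bmpr1b*, *Bmpr2* and *Id1* overlapped on one scale and separated towards P8 on the other. Without P0 library B all 10 genes had more peaks in the remaining P0 library than in either P8 library.

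**Figure D2:**
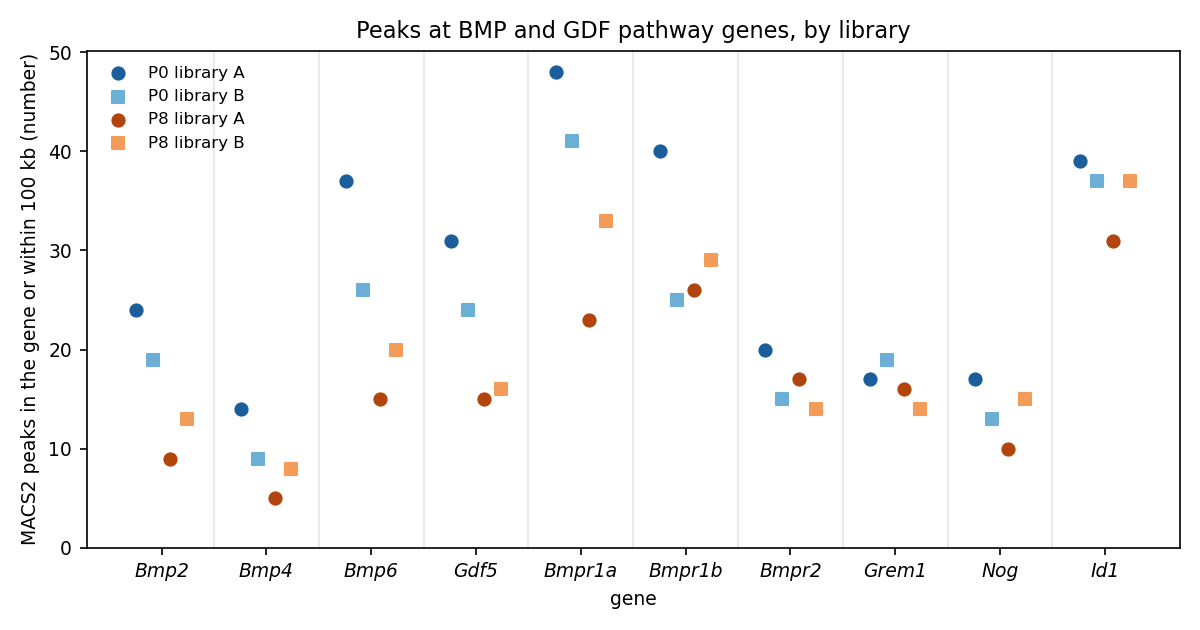
Number of MACS2 peaks inside each gene or within 100 kb of it, with 1 point per library. The P0 points lie above both P8 points at *Bmp2*, *Bmp4*, *Bmp6*, *Gdf5*, *Bmpr1a* and *Grem1*, and the passages overlap at *Bmpr1b*, *Bmpr2*, *Nog* and *Id1*.

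Sites were then sorted by the libraries that held them. Of the 329 sites, 116 (35.3%) had a peak in all 4 libraries, beside 32.4% of all sites. A further 47 (14.3%) had a peak in both P0 libraries and in neither P8 library, beside 17.0%. Only 3 (0.912%) had a peak in both P8 libraries and in neither P0 library, beside 1.84%. The remaining 163 sites had other combinations, among them 64 sites seen in P0 library A alone, 20 in P0 library B alone and 12 in each P8 library alone.

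Sites in all 4 libraries had a median width of 425 bp, against 232 bp for the sites of both P0 libraries only, beside 457 and 221 bp over all sites. A site spans all its merged peaks, so peaks from more libraries make it wider by construction. Of the 47 P0-only sites, 39 lay in the flanks of a gene, where 242 of all 329 sites lay, 5 in a gene body and 3 within 1 kb of a start site. All 3 P8-only sites lay in the bodies of type I receptor genes, 2 in *Bmpr1b* and 1 in *Bmpr1a*, which also held 26 and 13 of the 62 gene-body sites. The count of 47 became 75 without P0 library A, 113 without P0 library B, 51 without P8 library A and 69 without P8 library B. The count of 3 became 13 where shared peaks had to overlap by 50% of both, 10 without P0 library A and 16 without either P8 library.

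**Figure D3:**
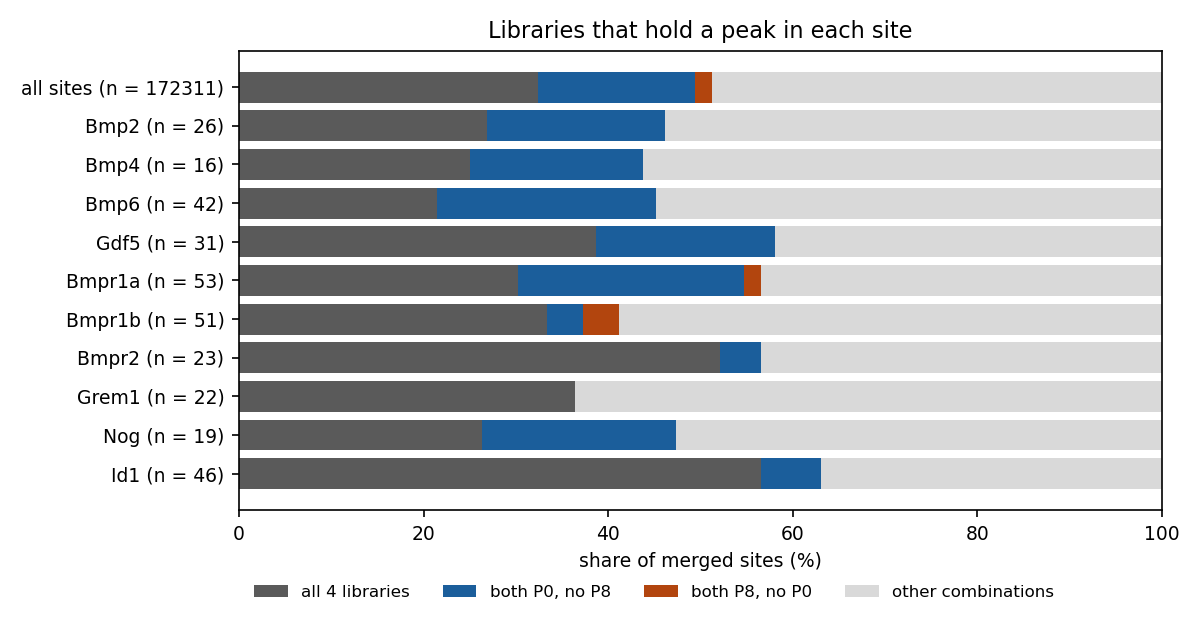
Share of merged sites (%) by the libraries that hold a peak, for all sites and for each gene. *Id1* and *Bmpr2* have the largest shares of sites in all 4 libraries, *Bmpr1a* and *Bmp6* the largest shares in both P0 libraries only, and *Grem1* has no such site.

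The *Bmp2* window, on chromosome 2, held 24 and 19 peaks at P0 and 9 and 13 at P8, a ratio of 1.95 (SD 0.597). It contains no other protein-coding gene. Of its 26 sites, 7 were in all 4 libraries and 5 in both P0 libraries only. A P0-only site at chr2:133635517-133635932, 72621 bp from the nearest gene end, had fold enrichments of 14.5 and 10.5 at P0 and no peak at P8. Sites were ranked by their mean over the libraries with a peak, which puts this one first, but a site in all 4 libraries at chr2:133498223-133499263 had a higher mean at P0, with 12.8 and 13.5, and 9.23 and 12.1 at P8. A site on the other side, at chr2:133483962-133484360 and 67799 bp away, was present in all libraries with 9.08 and 9.61 at P0 and 4.94 and 4.55 at P8. The ratio of the means was 1.97.

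*Bmp4*, which encodes a ligand close in sequence to that of *Bmp2*, had the fewest peaks, with 14 and 9 at P0 and 5 and 8 at P8, and again no other protein-coding gene in its window. Its P0 and P8 libraries separated by 1 peak, and per 100000 peaks they overlapped. The strongest of the 16 sites, at chr14:46436468-46437230 and 45799 bp from the gene, had 9.48 and 11.5 at P0 and 8.06 and 8.35 at P8. The strongest of the 3 P0-only sites, at chr14:46357790-46358095, had 6.62 and 6.41.

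*Bmp6*, a ligand of maturing chondrocytes, had 37 and 26 peaks at P0 and 15 and 20 at P8, a ratio of 1.80 (SD 0.574). It had 10 P0-only sites of 42, the most of any ligand. The strongest of them lay 32933 bp upstream, at chr13:38312219-38312783, with 12.0 and 10.4 at P0. Some 24881 bp upstream, a site in all libraries (chr13:38320086-38320835) had 13.3 and 12.9 at P0 and 9.08 and 12.5 at P8, which do not overlap but differ by little between P0 library B and P8 library B. *Bmp6* was the nearest protein-coding gene for 23 of its 42 sites, and *Txndc5* and Gm47978 share the window.

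*Gdf5* had 31 and 24 peaks at P0 and 15 and 16 at P8, a ratio of 1.77 (SD 0.329). Here the neighbours matter, since *Gdf5* was the nearest gene for only 3 of 31 sites and the window also holds *Uqcc1*, *Cep250*, *Ergic3*, *Fer1l4* and 6430550D23Rik. The strongest, at chr2:156007773-156008288 and 62406 bp away, had 17.6 and 17.2 at P0 and 11.6 and 13.2 at P8 and lay at the start sites of *Ergic3* and 6430550D23Rik. The strongest P0-only site was 34936 bp away, at chr2:155905874-155906087, with 6.38 and 5.55, and *Uqcc1* was its nearest gene.

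**Figure D4:**
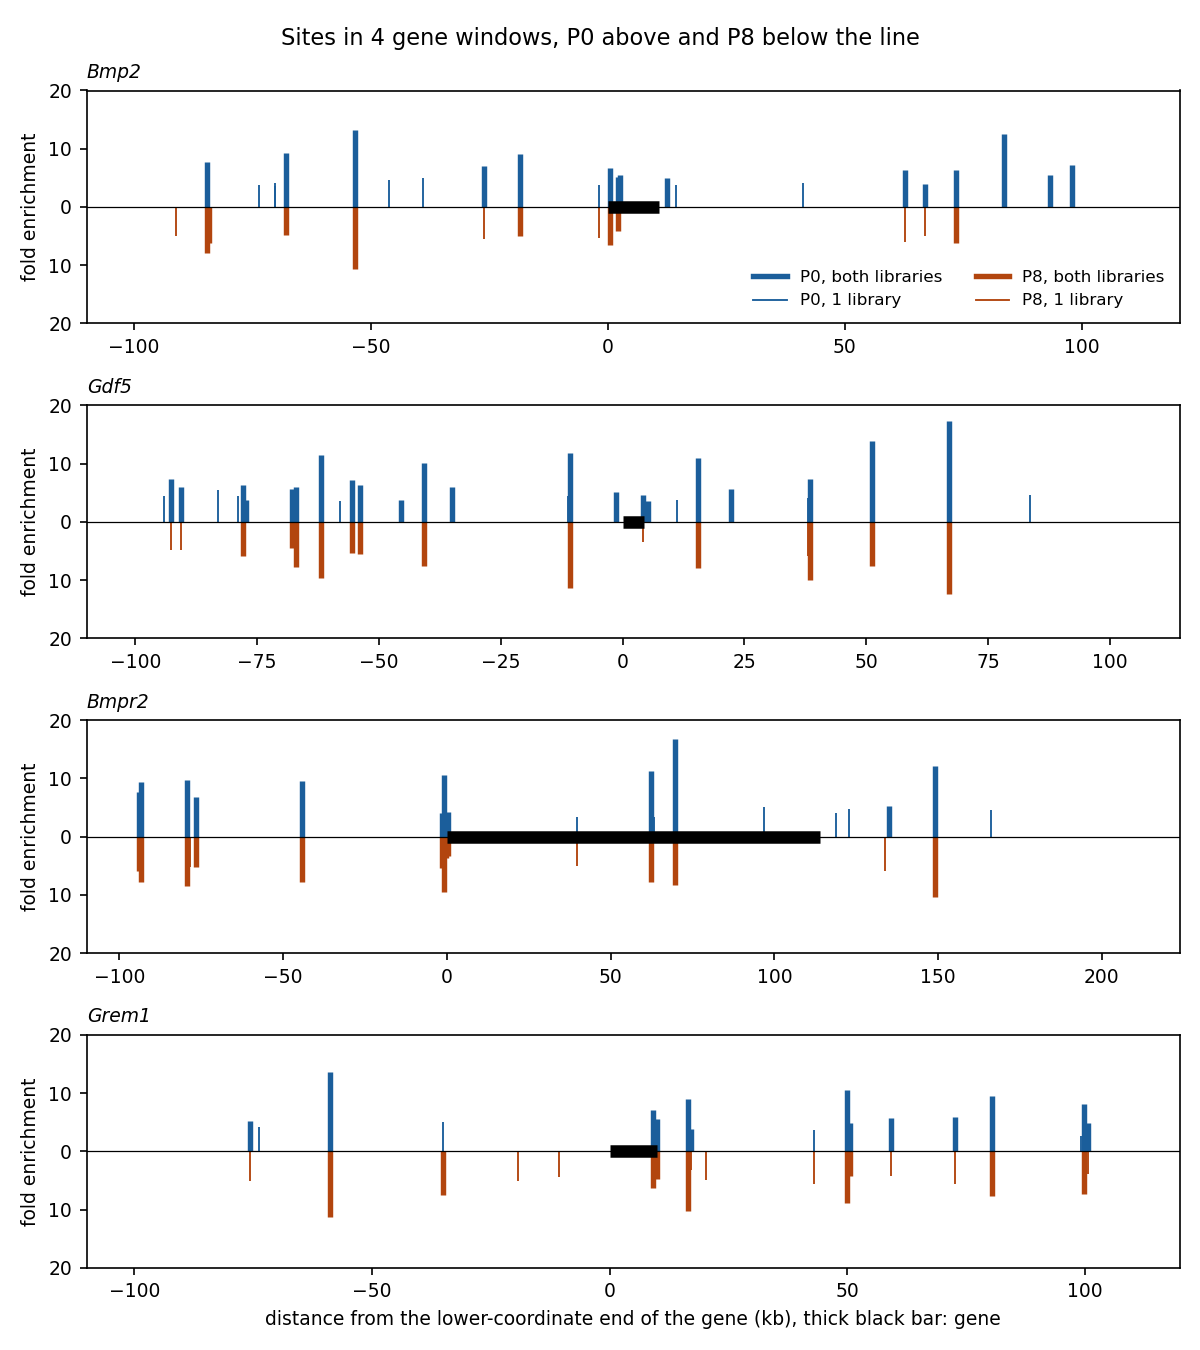
Fold enrichment of each site (mean of the libraries with a peak) against distance from the lower-coordinate end of the gene (kb), with P0 drawn upwards in blue, P8 downwards in orange, and thin lines where 1 of the 2 libraries had a peak. *Bmp2* and *Gdf5* show blue lines with no orange counterpart, while at *Bmpr2* and *Grem1* nearly all thick blue lines have one.

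*Bmpr1a* had the most peaks of the 10 genes at P0, 48 and 41, and 23 and 33 at P8, a ratio of 1.59 (SD 0.439), and per 100000 peaks its libraries overlapped. It was the nearest gene for 16 of its 53 sites and shares the window with 7 other genes. Of the 53 sites 13 were P0-only, the strongest at chr14:34404803-34405165 with 6.57 and 6.64, at the start site of *Mmrn2*. The strongest site beyond the start site, at chr14:34532524-34532953, had 14.8 and 13.3 at P0 and 8.91 and 11.4 at P8, with *Ldb3* as its nearest gene. The P8-only site in the gene body, at chr14:34445055-34445214, had 4.91 and 4.08. It lies between sites in all 4 libraries at chr14:34444425-34444768 and chr14:34445288-34445637, so it is not set apart from chromatin open at P0. The latter had 8.29 and 8.80 at P0 and 6.04 and 6.18 at P8.

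*Bmpr1b*, a type I receptor that binds the *Gdf5* product, is the longest of the genes and had 40 and 25 peaks at P0 and 26 and 29 at P8, which overlap. Its strongest site, in the gene body at chr3:141940907-141941379 and 9319 bp from the nearest start site, had 15.5 and 15.3 at P0 and 13.4 and 13.2 at P8, higher in both P0 libraries as deposited and with a log2 difference of -0.05 (SE 0.170) after the library medians were subtracted. It had 2 P0-only and 2 P8-only sites of 51. The stronger P8-only site, at chr3:141868094-141868270, had 5.44 and 5.05 and the stronger P0-only site, at chr3:142243330-142243551, had 4.55 and 5.95, so both were weak.

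*Bmpr2* had 20 and 15 peaks at P0 and 17 and 14 at P8, with 12 of 23 sites in all 4 libraries and 1 P0-only site. As deposited, 11 of the 12 were higher in both P0 libraries, beside 49.9% of all sites in 4 libraries, but with the library medians divided out 1 was higher at P0 (background 21.5%), 2 were higher at P8 (background 34.1%) and the others overlapped. The strongest, inside the gene at chr1:59833678-59834137 and 69399 bp from the start site, had 15.7 and 18.0 at P0 and 6.92 and 9.60 at P8. The pileup at this summit was 43 and 48 tags at P0 and 13 and 18 at P8. The P0-only site, at chr1:59899259-59899454 and nearest to *Fam117b*, had 4.55 and 5.95.

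*Grem1* had 17 and 19 peaks at P0 and 16 and 14 at P8, which separate by 1 peak and overlap at matched background. It was the only gene of the 10 with no P0-only and no P8-only site, and it was the nearest gene for 6 of its 22 sites. Its strongest site, at chr2:113689592-113690109 and nearest to *Fmn1*, had 12.7 and 14.6 at P0 and 11.3 and 11.4 at P8. Just outside the limit of 100 kb, at 100233 bp from *Grem1*, lay another site in all libraries with a highest fold enrichment of 14.5. *Nog* had 17 and 13 peaks at P0 and 10 and 15 at P8, which overlap, and 4 P0-only sites of 19. Its strongest site beyond the start site, 37367 bp away at chr11:89339926-89340535, had 10.0 and 11.2 at P0 and 6.92 and 9.09 at P8, with a log2 difference of 0.15 (SE 0.177, adjusted p = 0.642 by limma). The strongest P0-only site, at chr11:89381904-89382552, had 7.59 and 8.93, with *Ankfn1* as its nearest gene.

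*Id1*, which encodes an inhibitor of basic helix-loop-helix factors, had 39 and 37 peaks at P0 and 31 and 37 at P8, which overlap, and the largest share of sites in all libraries, 26 of 46. Its neighbourhood is gene-rich, with *Bcl2l1*, *Cox4i2*, *H13* and *Mcts2* in the window, and *Id1* was the nearest gene for 9 sites. The strongest site, at chr2:152820862-152821515 and nearest to *Bcl2l1*, had 10.8 and 12.5 at P0 and 8.30 and 8.54 at P8. The strongest P0-only site, at chr2:152767698-152767905 and also nearest to *Bcl2l1*, had 5.18 and 6.54. Closest to the limit of 100 kb were an *Id1* site at 99284 bp and a *Bmpr1a* site at 99482 bp inside it, and outside it, beside the *Grem1* site, a *Bmp4* site at 100379 bp.

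For the sites present in all 4 libraries the enrichment itself was compared. As deposited, 55 of the 116 sites were higher in both P0 libraries (background 49.9% of 55890 sites) and 15 were higher in both P8 libraries (background 11.6%). *Bmpr2* contributed 11 of 12 sites to the former, *Gdf5* 7 of 12, *Grem1* 5 of 8, *Bmp6* 5 of 9 and *Bmp2* 4 of 7. *Nog* contributed 3 of 5, *Bmpr1b* 7 of 17, *Id1* 8 of 26, *Bmpr1a* 4 of 16 and *Bmp4* 1 of 4. The median enrichment of all 55890 sites was higher at P0, however, at 8.28 and 8.08 against 6.43 and 7.15. After the median of each library was subtracted on the log2 scale, 24 of the 116 sites were higher in both P0 libraries, beside 21.5% of all 55890 sites, and 45 in both P8 libraries, beside 34.1%, so the prevailing direction depends on the scaling for these sites and for all sites alike. On that scale *Gdf5* had 4 sites higher at P0 and 3 at P8, *Bmp2* 2 and 2, *Bmp6* 3 and 4, *Bmp4* 0 and 3, and *Bmpr1a* 3 and 12 of its 16. *Bmpr1b* had 3 and 8, *Id1* 6 and 8, *Bmpr2* 1 and 2, *Grem1* 1 and 2, and *Nog* 1 and 1.

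limma was fitted to the log2 fold enrichment of all 55890 sites with the library medians subtracted. Sites without a peak in every library, among them the 47 P0-only and 3 P8-only sites, had no value in the fit and could not be called. At an adjusted p under 0.05 limma called 2 of the 116 sites in favour of P0 and 11 in favour of P8, beside 3.21% and 5.74% of all sites. With the values as deposited it called 9 and 1, beside 8.79% and 0.836%. The median log2 difference over all sites was -0.07 in the first fit and 0.20 in the second. The median over the 116 sites was -0.10 and 0.17.

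Both sites called higher at P0 have been described. At the *Bmpr2* site inside the gene the log2 difference was 0.77 (SE 0.184, adjusted p = 0.0238 by limma) and at the *Bmp2* site 67799 bp from the gene it was 0.71 (SE 0.176, adjusted p = 0.0282). Both were also called with the values as deposited, after quantile normalization and with pileup in place of fold enrichment. Neither was called when P0 library A or P0 library B was left out, where the *Bmpr2* differences were 0.89 and 0.65 and the *Bmp2* differences 0.77 and 0.65. The *Bmpr2* site was also not called without P8 library A (0.61, adjusted p = 0.0570 by limma), nor the *Bmp2* site without P8 library B (0.57, adjusted p = 0.0644 by limma).

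The 11 sites higher at P8 belonged to *Bmpr1b* with 4, to *Gdf5* and *Id1* with 2 each and to *Bmpr1a*, *Bmpr2* and *Nog* with 1 each. The one with the smallest adjusted p, 0.00967 by limma, was the *Id1* site at 99284 bp (chr2:152636613-152636967), with 4.14 and 4.12 at P0 and 6.21 and 6.80 at P8 and a log2 difference of -0.92 (SE 0.167). Its nearest gene was *Rem1*, and it was the only one of the 11 called under all 3 other scalings. The summits of this *Id1* site held few tags, 9 and 8 at P0 and 12 and 13 at P8. In the *Bmpr1b* gene body, the site at chr3:141844675-141845092 had 5.80 and 5.49 at P0 and 8.11 and 7.98 at P8, a log2 difference of -0.78 (SE 0.170, adjusted p = 0.0175 by limma). In the *Gdf5* window the site at chr2:155979323-155979720, nearest to *Cep250*, had 7.45 and 7.32 at P0 and 9.39 and 10.5 at P8. No site within 1 kb of a start site of the 10 genes was called in either direction.

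Of the 11 sites, the closest to a start site was a *Bmpr2* site 1202 bp upstream, at chr1:59762703-59763077, with 4.27 and 3.79 at P0 and 5.22 and 5.65 at P8 and a log2 difference of -0.70 (SE 0.169, adjusted p = 0.0246 by limma). It lies next to the strongest start-site peak of *Bmpr2*, which was higher in both P0 libraries as deposited. A weak site in the *Bmpr1a* gene body, at chr14:34447812-34447966, had 3.05 and 2.82 at P0 and 3.88 and 3.79 at P8. At *Bmpr1b* a site at chr3:142186637-142186856 had 7.45 and 7.32 against 9.39 and 9.60, and another at chr3:141819319-141819593, nearest to *Unc5c*, had 6.62 and 5.95 against 8.90 and 7.58. The other *Gdf5* site (chr2:155873631-155874441), nearest to *Uqcc1*, had 5.92 and 6.05 against 7.85 and 7.66. The *Nog* site, 60438 bp away at chr11:89239864-89240200, had 6.21 and 5.49 against 7.86 and 7.00, and the other *Id1* site (chr2:152652901-152653223), nearest to *H13*, had 6.21 and 4.58 against 6.41 and 7.39. At all 7 of these sites both P8 libraries lay above both P0 libraries, and their log2 differences ranged from -0.70 to -0.62. All 11 kept their direction with the values as deposited, but only the *Id1* site was then called. Without P0 library B none of the 11 was called, with log2 differences from -0.94 to -0.44, and the whole fit of 55890 sites then made 0 calls for P0 and 1 for P8. Without P0 library A, 1 of the 11 was called, without P8 library A 5 and without P8 library B 10.

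**Figure D5:**
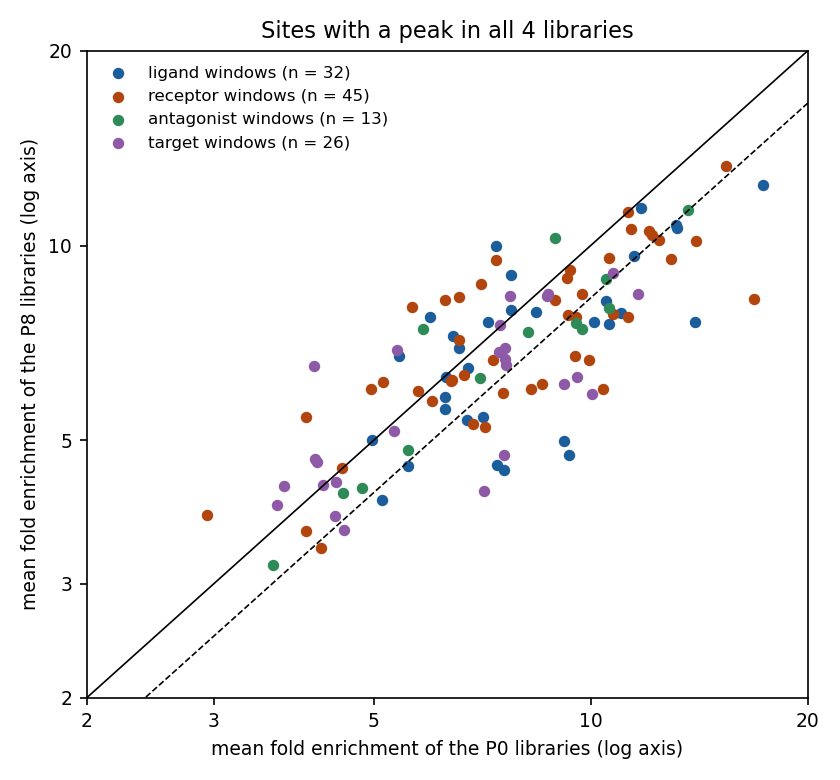
Mean fold enrichment at P0 (horizontal) and at P8 (vertical), both on log axes, for the 116 sites with a peak in all 4 libraries, coloured by the role of the gene. The solid line marks equal values and the dashed line the ratio of the library medians of all 55890 sites. More points lie below the solid line than above it, whereas more lie above the dashed line than below it, and the *Bmpr2* site with 15.7 and 18.0 at P0 is the receptor point furthest to the right.

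A wider list of 38 pathway genes was described in the same way. Of these, 27 had more peaks in both P0 libraries, 0 in both P8 libraries and 11 overlapped, with a median ratio of 1.43, beside the 56.1% and 3.35% of all genes given above, and per 100000 peaks 10 were higher at P0 and 11 at P8. Of the 10 further antagonists, 9 were higher at P0 by number (4 at P0 and 1 at P8 per 100000), among them *Bmper* with 47 and 43 peaks at P0 and 27 and 31 at P8, *Chrdl2* with 30 and 28 against 13 and 23, *Twsg1* with 30 and 22 against 15 and 15, and *Sost* with 22 and 17 against 8 and 15. The exception was *Chrd*, which encodes chordin and had 21 and 21 against 21 and 22. Start-site peaks were found in all 4 libraries for 31 of the 38 genes, beside 59.5% of all genes, and in no library for *Bmp10* and *Sost*, beside 31.1%.

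Of the 10 further ligands, 7 were higher at P0 by number (4 at P0 and 2 at P8 per 100000, beside 19.0% and 38.0% of all genes), such as *Bmp7* with 32 and 33 peaks against 19 and 19, *Bmp8b* with 29 and 24 against 11 and 13, *Bmp8a* with 32 and 23 against 16 and 15, and *Gdf10* with 27 and 26 against 11 and 20. Of the 5 further receptors, *Acvr1* (38 and 27 against 19 and 26) and *Acvrl1* (39 and 34 against 28 and 25) were higher at P0 by number, whereas per 100000 peaks 0 of the 5 were higher at P0 and 1 at P8. *Bambi* (13 and 7 against 8 and 8) and *Acvr2a* (6 and 10 against 8 and 5) overlapped. Among the Smads, the intracellular mediators, 3 of 6 were higher at P0 by number (2 at P0 and 4 at P8 per 100000), with *Smad6*, an inhibitory Smad, at 56 and 49 peaks against 33 and 32, *Smad1* at 21 and 18 against 10 and 14, and *Smad5* at 37 and 30 against 26 and 29, whereas *Smad4*, the shared partner of the receptor-regulated Smads, overlapped with 33 and 24 against 24 and 24. The *Smad6* start-site peak went the other way, with 5.87 and 5.79 at P0 and 6.74 and 6.78 at P8. Of the wider list, only the start-site peak of *Id4* was also higher in both P8 libraries, beside 4.14% of all genes with such a peak. The start-site peaks of *Smad1*, *Smad4* and *Smad9*, 3 of 6, were higher in both P0 libraries, beside 61.8% of all genes with such a peak. Those of *Smad5* and *Smad7* overlapped. These start-site values are as deposited, without division by the library medians. Among 7 further targets 6 were higher at P0 by number, but per 100000 peaks 0 were higher at P0 and 3 at P8. The 6 included *Id3* with 41 and 37 against 24 and 29, *Msx2* with 24 and 18 against 9 and 16, *Msx1* with 19 and 17 against 13 and 13, and *Hey1* with 13 and 17 against 10 and 11. *Id4*, with 13 and 9 against 9 and 13, was the exception.

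The cell type given by the labels was checked at start sites. Of 9 chondrocyte markers, 9 had a peak in each P0 library and 8 in each P8 library, with *Matn1*, a cartilage matrix gene, at 4.78 and 5.65 at P0 and without a peak at P8. Their fold enrichments summed to 43.0 and 48.9 at P0 against 42.2 and 37.8 at P8. *Col2a1*, the defining cartilage collagen gene, had low but present values of 3.63, 3.58, 4.09 and 3.69, and the highest sum of any single marker in this list came from *Col9a1*, with 7.40, 8.55, 6.98 and 6.85. Fibroblast markers had a peak at 6 and 6 of 6 genes at P0 and at 5 and 4 at P8, with summed values of 29.9, 33.9, 27.7 and 22.2 and *Col1a2* as the strongest.

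Blood and macrophage markers had a peak at 2 of 5 genes in each P0 library and at 1 in each P8 library, with sums of 15.5, 15.0, 8.04 and 9.31 that were mostly *Spi1*, and the defining *Ptprc*, *Csf1r* and *Adgre1* had none in any library. Endothelial markers had a peak at 2 of 5 genes in every library, *Kdr* and *Tek*, and none at *Pecam1*, *Cdh5* and *Tie1*, with sums of 14.1, 12.4, 9.89 and 10.6. Of 3 muscle markers only *Myod1* had a peak, with 5.71, 7.39, 4.84 and 4.44, and *Myf5* and *Myog* had none. As deposited the sums of all 5 lists were higher in both P0 libraries, as were the peaks of the ligand windows. A marker without a peak added nothing to a sum, such as *Matn1* and *Pdgfra* at P8 and *Thy1* in P8 library B. The sums therefore mix missing peaks with lower enrichment. Divided by the median start-site peak of each library, the chondrocyte sums were 4.40, 4.77, 5.17 and 4.40 and the fibroblast sums 3.05, 3.30, 3.39 and 2.58, and these lists, the endothelial and the muscle list overlapped. The blood and macrophage sums, at 1.58, 1.46, 0.984 and 1.08, stayed higher at P0. Besides *Spi1*, the P0 sums hold *Cd68*, with 3.62 and 4.55 as deposited, which had no peak at P8. The part of these lists in the differences between passages was not tested.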

How the data were processed

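ATAC-seq peaks of 4 libraries, 2 at P0 and 2 at P8, were analysed. Per the submitters' processing notes, Bowtie2, MACS2, ChIPseeker, DiffBind and HOMER were used with mm10, and the methods state that peaks were called in each sample by MACS2 at default settings. The deposited peak lists give each peak's position, its summit pileup (signal in tags, without correction for depth), its fold enrichment (a ratio to local background) and −log10 p-values and q-values. Another table deposited by the authors holds the log2 fold change, p-value and FDR of their own comparison and was not used here.

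Libraries were told apart by the prefix of the peak names. Genes, start sites and promoters came from RefSeq tables of GRCm38.p6, the assembly of mm10, and 6 of the 10 genes had a promoter there. The local background was obtained from pileup and fold enrichment. For matched background, Poisson p-values were recomputed at the lowest background and peaks with −log10 p of at least 3.38 were kept. Peak widths were not adjusted. Read totals were not used here, so depth is known only through this background.

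Sites with a peak in all 4 libraries were compared with limma 3.58.1 (R 4.3.3) on log2 fold enrichment without a pseudocount, with robust empirical Bayes and Benjamini-Hochberg adjustment over all sites. Totals were tested by exact two-sided permutation (scipy 1.17.1). Python 3.11.15, pandas 2.3.3, numpy 2.4.6 and matplotlib 3.10.9 were used. Alternatives changed the window, the assignment to genes, the threshold, the overlap, the scaling and the libraries. The fit and the merging of sites were tested on simulated data.

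The genes, lists, motifs and tests were chosen with earlier results of these data known. Sites named for each gene were the strongest at a start site, the strongest beyond it, the strongest P0-only and P8-only sites and up to 3 sites called by limma, and other pathway genes were named by the largest difference in mean peaks, up to 4 a list (of 2 genes tied for a last place, 1 is not reported here). *Chrd*, *Id4*, *Bmp10*, the start-site result of *Sost*, the shared *Bmp2* site with 12.8 and 13.5 at P0, the *Bmp4* site inside the gene and the weaker peaks at the *Bmp6*, *Bmpr1b* and *Bmpr2* start sites were named after their values were seen. The same holds for the start-site results of the Smads and *Id4*, the weaker *Grem1* peak and the *Bmpr1b* site at the higher-coordinate end of the gene.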

Additional observations from a re-analysis of the deposited data

How the results depend on the processing

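Of 124 alternatives, 87 left a ratio within its SD of the main value, or a count within 1.5 times its main value, and 37 moved it. With 2 libraries per passage, a ratio with 1 library left out stays within that SD almost by arithmetic. Those alternatives, which are among the 87, are therefore no test of the ratios. The prevailing direction turned with the scaling for the 116 sites in all 4 libraries, whose median log2 difference was -0.10 with library medians subtracted and 0.17 as deposited, and for the start-site ratio. The ratio of peaks of 1.41 was 1.0 per 100000 peaks and ranged from 1.25 to 1.57 when 1 library was left out. The genes with more peaks in both P0 libraries were 6, and 3 per 100000 peaks, with a range of 6 to 10 when 1 library was left out, the highest without P0 library B. The genes with more in both P8 libraries were 0, and 3 per 100000 peaks, with a range of 0 to 1. The P0-only sites were 47, fell to 29 with a window of 50 kb and to 19 where the gene had to be the nearest, both of which examine fewer sites, and ranged from 51 to 113 (without P0 library B). The P8-only sites were 3, were 13 where shared peaks had to overlap by 50% of both, and ranged from 3 to 16.

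With pileup, limma called 3709 of all 55890 sites for P0 and 6931 for P8, and after quantile normalization 1056 and 838. Restricted to sites above the median −log10 q, it tested 27945 sites, among them 55 of the 116, and called 1218 and 750. Of the 116 sites, the 2 called for P0 became 9 as deposited, 7 with pileup and 1 above the median −log10 q. The 11 called for P8 became 1, 17 and 0 under the same settings and 3 after quantile normalization, and the cause was not tested. When 1 library was left out they ranged from 0 to 3 and from 0 to 13. Without P0 library B the median log2 difference of the 116 sites was -0.12, beside -0.08 over all sites. The single P0 or P8 library then left is assumed to vary like the other passage. The start-site fold enrichment of the 8 genes with a peak in every library had a ratio of 1.14, which was 0.958 after division by the library medians and 2.10 with pileup, which is not scaled for depth, and ranged from 1.06 to 1.24.

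No paired analysis was possible because the peak names carry no replicate number of the labels. With 2 libraries for each passage the exact permutation tests could not reach 0.05, and depth and passage cannot be told apart beyond the matched background.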
